A study of Mus musculus with 9 samples.

Results

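The 8 genes described here are transcription factors of the Wnt pathway: the TCF/LEF family genes Tcf7, Tcf7l1, Tcf7l2 and Lef1, and Sp5, Ascl2, Myc and Cdx2, which are known in other tissues as Wnt target genes. They were chosen by name from the 32137 genes of the deposited count files, by a rule that names genes and sets no threshold on a measured value. Each name matched 1 gene. RNA was sequenced from sorted cells of differentiated bile duct organoids, which are cultured outgrowths of the bile duct epithelium, in 9 libraries. All organoids came from a single male Axin2CreERT2+/-; R26-LSL-tdTom+/- mouse, in which a tamoxifen-activated Cre recombinase is made under control of Axin2 and switches on the red reporter tdTom.

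The untreated group held tdTom-negative cells of organoids that received no R-spondin 1 (Rspo1). The Rspo1-negative and Rspo1-positive groups held the tdTom-negative and tdTom-positive cells of organoids given 100 ng/ml Rspo1. All groups, untreated cells included, carried both alleles, were differentiated for 11 days and received 3 uM dexamethasone and 500 nM 4-hydroxytamoxifen, the form of tamoxifen that acts on the Cre, in the last 24 h. Each group had 3 libraries, 1 each at organoid passage 5, 6 and 10. No group held tdTom-positive cells of untreated organoids, so the gate was compared only under Rspo1. With 1 animal, the spread between libraries is that of repeated cultures and not of animals. Total counts ran from 23423979 to 37351448 per library, and 17011 genes passed the filter on low counts and were tested.

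In Wnt signalling, beta-catenin enters the nucleus and binds TCF/LEF proteins, which sit on DNA and repress their targets through Tle co-repressors until beta-catenin arrives. Rspo1 binds Lgr receptors and keeps Wnt receptors at the cell surface by removing Rnf43 and Znrf3, so it strengthens a Wnt signal that is already present. Tcf7l1 acts mainly as a repressor, Tcf7l2 is the main intestinal family member and can activate or repress, and Tcf7 and Lef1 are often switched on by the pathway they serve. Sp5 is a zinc finger protein of the Sp family that dampens Wnt output, and Ascl2 is a basic helix-loop-helix factor that maintains intestinal stem cells.

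Sp5 and Ascl2 showed the largest differences among the 8 genes, and the 250 bases before their RefSeq start sites (GRCm38.p6) are shown to set the sequence beside the values. Capitals in the Sp5 sequence (chr2:70474673-70474922, plus strand) mark TCF/LEF core words. Capitals in the Ascl2 sequence (chr7:142969265-142969514, minus strand) mark a GC box, the word bound by Sp proteins. Both are printed 5′ to 3′ in the direction of transcription.
Sp5: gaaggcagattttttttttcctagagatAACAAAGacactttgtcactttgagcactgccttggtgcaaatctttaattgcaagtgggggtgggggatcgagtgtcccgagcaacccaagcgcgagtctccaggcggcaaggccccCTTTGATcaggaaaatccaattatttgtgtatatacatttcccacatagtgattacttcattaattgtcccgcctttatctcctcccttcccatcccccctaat
Ascl2: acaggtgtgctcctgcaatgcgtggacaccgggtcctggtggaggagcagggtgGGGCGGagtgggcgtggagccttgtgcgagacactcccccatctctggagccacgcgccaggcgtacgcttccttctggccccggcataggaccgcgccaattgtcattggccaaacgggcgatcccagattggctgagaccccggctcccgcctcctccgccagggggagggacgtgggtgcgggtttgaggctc

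Windows from 250 bases before to 50 after each start were searched on both strands. The TCF/LEF core was searched as AACAAAG, as its variant ATCAAAG, as the variant TACAAAG and as the variant TTCAAAG. The E-box, bound by Myc and its partners, was searched as CACGTG, and the GC box as GGGCGG. Hits of different motifs did not overlap in the windows of the 8 genes. The Sp5 window held 2 TCF/LEF core words, AACAAAG starting 222 bases before the start site and ATCAAAG, read on the other strand, 104 bases before it. Of 32851 windows of the same length over all genes, 16.9% held at least 1 TCF/LEF core word. The windows of Tcf7, Tcf7l1, Ascl2 and Cdx2 held none, the second Tcf7l2 window held 1 and the fourth Lef1 window held 1. Ascl2 had 1 GC box, 196 bases before its start, a word found in 35.7% of all windows. The GC box was not particular to Ascl2, since windows of Tcf7, Tcf7l1, Tcf7l2 and Lef1 held it too. The window of Axin2, which also rose with Rspo1, held 2 GC boxes and no TCF/LEF core word. The E-box stood in 7.15% of all windows and, among these genes, in the fourth Lef1 window. Windows were matched for 7 of the 8 genes. These are matches of letters and not measured binding sites.

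Axin2, the gene that drives the Cre and a classical Wnt target, served as the check of the labels. It stood at 1.32, 1.74 and 5.96 CPM in untreated cells of passages 5, 6 and 10, where CPM is the count divided by the TMM-scaled library size. It stood at 44.4, 97.4 and 124.2 CPM in Rspo1-negative cells and at 75.7, 88.8 and 154.5 CPM in Rspo1-positive cells. Both Rspo1 groups lay far above every untreated library, and they overlapped each other. The log2 difference between the Rspo1-positive and Rspo1-negative groups was 0.26 (SE 0.50, adjusted p = 0.733, edgeR quasi-likelihood test), although the tdTom gate separates cells by Axin2-driven Cre activity.

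Across the TCF/LEF family, Tcf7 rose in both Rspo1 groups, Tcf7l2 fell in the Rspo1-negative group and not in the Rspo1-positive group, Tcf7l1 was weak throughout and Lef1 was at the limit of detection. Tcf7 read 2.55, 1.54 and 5.10 CPM in untreated cells at passages 5, 6 and 10, from 83, 46 and 177 counts. It read 9.69, 9.96 and 18.9 CPM in Rspo1-negative cells and 14.2, 15.5 and 22.2 CPM in Rspo1-positive cells. Every Rspo1 library exceeded every untreated library, and the passage 10 library was the highest of its group in all 3 groups. The log2 fold change of Tcf7 was 2.49 (SE 0.42, adjusted p = 0.00686) in Rspo1-positive against untreated cells and 2.06 (SE 0.42, adjusted p = 0.00794) in Rspo1-negative against untreated cells. The positive and negative gates differed by 0.43 (SE 0.40, 95% interval -0.44 to 1.31, adjusted p = 0.459). With passage as a block and a GC and length offset that difference was 0.70 (adjusted p = 0.0236), and Tcf7 was higher in the Rspo1-positive library at 3 of 3 passages. Gene counts add up all Tcf7 transcripts, so forms of the protein with and without the beta-catenin binding end cannot be told apart.

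Tcf7l2 followed another pattern. It read 10.6, 11.2 and 12.3 CPM in untreated cells, 5.27, 5.76 and 5.97 CPM in Rspo1-negative cells and 11.9, 8.97 and 9.99 CPM in Rspo1-positive cells at passages 5, 6 and 10. The 3 Rspo1-negative libraries were the lowest of the 9. Of all tested genes, 36.3% had no overlap between Rspo1-negative and untreated cells, in either direction, and 45.2% had none between the gates. The other two groups overlapped, since the Rspo1-positive library exceeded 2 of the 3 untreated libraries at passage 5 and lay below all of them at passages 6 and 10. Rspo1-negative cells stood at 0.499, 0.514 and 0.486 of the untreated level of Tcf7l2 within passages 5, 6 and 10. It fell by 1.003 on the log2 scale (SE 0.18, adjusted p = 0.0041) against untreated cells, and the Rspo1-positive group was higher than the Rspo1-negative group by 0.86 (SE 0.18, adjusted p = 0.00788). Within passages 5, 6 and 10 the Rspo1-positive level was 1.13, 0.801 and 0.813 of the untreated level. Rspo1-positive and untreated cells differed by -0.14 (SE 0.17, 95% interval -0.52 to 0.24, adjusted p = 0.778).

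The Rspo1-negative libraries also differed from the other libraries by base composition, a property of the whole table that touches this result. Over 17001 genes, which are not independent replicates, the change from untreated to Rspo1-negative cells had a Spearman correlation of 0.496 with the GC content of the longest transcript and -0.307 with its length. For the difference between the gates the values were -0.504 and 0.311, and for the change from untreated to Rspo1-positive cells -0.0134 and 0.00614. Tcf7l2 has a GC content of 47.3% and a longest transcript of 3715 bases, whereas Tcf7 has 52.3% and 2471 bases. When the GC and length trend of each library entered the fit as an offset, Tcf7l2 still fell by 0.86 on the log2 scale in Rspo1-negative against untreated cells (SE 0.17, adjusted p = 0.0158). Under the same offset it was higher by 0.69 in the Rspo1-positive than in the Rspo1-negative group (SE 0.17, adjusted p = 0.0339).

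Tcf7l1, the repressive member, gave 24 to 33 counts in untreated libraries, 4 to 22 in Rspo1-negative libraries and 15 to 23 in Rspo1-positive libraries. Its levels were 0.954, 0.803 and 0.950 CPM in untreated cells, 0.373, 0.165 and 0.932 CPM in Rspo1-negative cells and 0.419, 0.506 and 0.644 CPM in Rspo1-positive cells. All Rspo1-positive libraries lay below all untreated libraries, an absence of overlap that 23.2% of the tested genes shared in either direction. The test did not pass, with a log2 fold change of -0.79 (SE 0.51, 95% interval -1.91 to 0.33, adjusted p = 0.49). The difference of -0.90 (SE 0.52, 95% interval -2.04 to 0.25, adjusted p = 0.242) between Rspo1-negative and untreated cells did not pass either. Of the exon bases of Tcf7l1, 4.56% overlap the antisense gene Gm15401, and the strand setting of the counting is not given in the sources used here.

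Lef1 had 4 counts in all 9 libraries, 3 of them in the Rspo1-positive library of passage 10 and 1 in the Rspo1-negative library of passage 10. The other 7 libraries held none, which allows a level of up to 0.08 to 0.13 CPM at 3 counts per library over the 9 libraries. Lef1 failed the filter and was not tested. No difference in Lef1 was detectable at this depth.

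**Figure D1:**
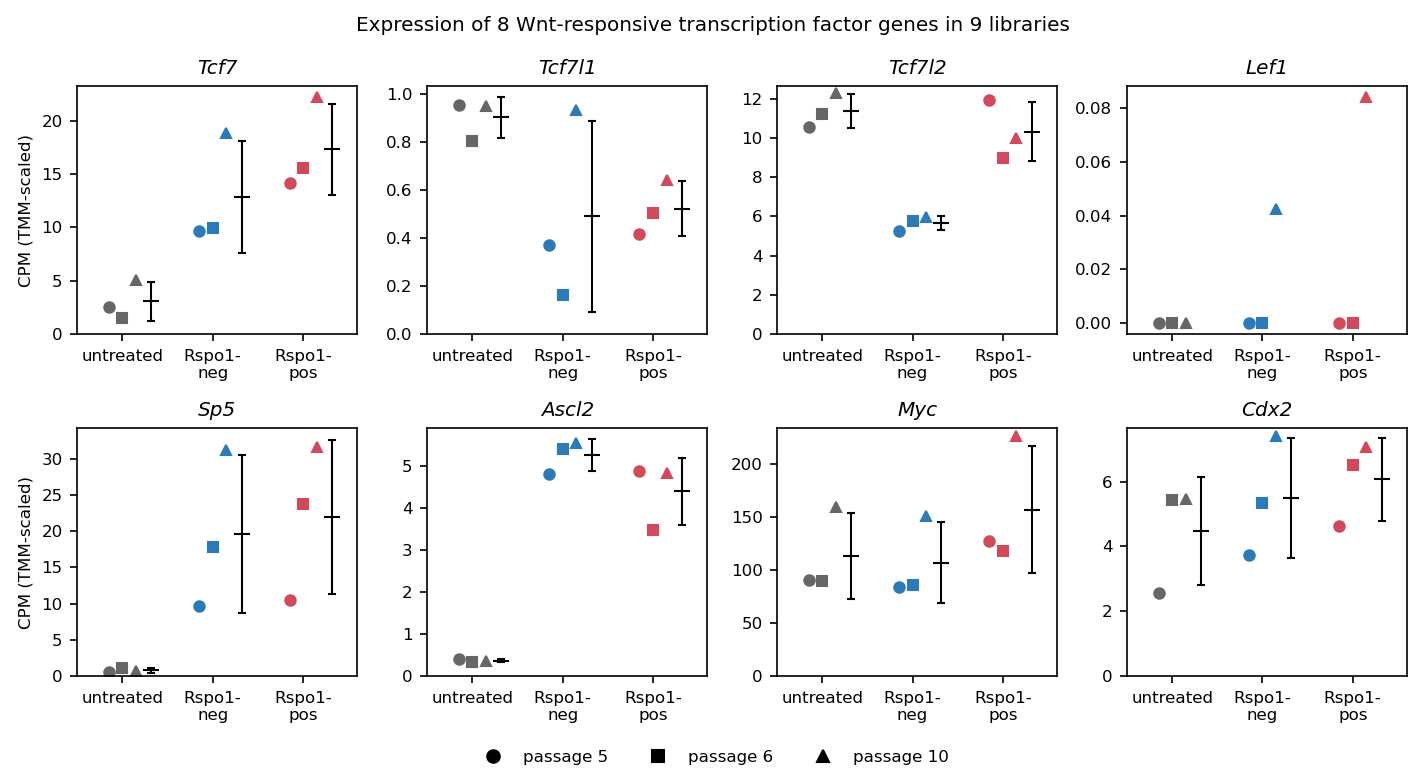
Level of each of the 8 genes in CPM (TMM-scaled, vertical axis from 0 with its own scale per gene) in the 3 groups, with 1 symbol per library shaped by passage and the mean and SD of 3 libraries as a black bar (none for Lef1, which had 4 counts in all). Tcf7, Sp5 and Ascl2 sit higher in both Rspo1 groups than in untreated cells, and Tcf7l2 is lowest in the Rspo1-negative group.

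On the deposited FPKM scale, which is per length and so allows genes to be set side by side, Tcf7l2 was the leading TCF/LEF gene in untreated cells and Tcf7 in both Rspo1 groups. The ratio of Tcf7 to Tcf7l2 FPKM was 0.404, 0.229 and 0.692 in untreated cells at passages 5, 6 and 10. It was 3.07, 2.89 and 5.28 in Rspo1-negative cells and 1.98, 2.89 and 3.71 in Rspo1-positive cells. Every untreated library was below 1 and every Rspo1 library above it. The gene lengths behind the deposited FPKM are not given here, and the ratios, shares and sums depend on them. Tcf7l2 has 8775 exon bases in all and a longest transcript of 3715, against 2625 and 2471 for Tcf7. The side of 1 is thus tied to the deposited lengths, while the order of libraries by ratio is not. The GC and length trend of the Rspo1-negative libraries was not removed from these ratios. The mean log2 ratio was -1.32 ± 0.80 (SD, n = 3) in untreated, 1.85 ± 0.48 in Rspo1-negative and 1.47 ± 0.46 in Rspo1-positive cells. A 2-sided exact permutation test of the log2 ratio gave p = 0.1 for each Rspo1 group against untreated cells (adjusted over 3 comparisons 0.15), the smallest value that 3 libraries against 3 allow. Between the positive and negative gates the same exact permutation test gave p = 0.5.

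Tcf7 held 17.3% to 38.5% of the summed FPKM of the 4 TCF/LEF genes in untreated cells, 73.5% to 81.2% in Rspo1-negative cells and 65.4% to 77.2% in Rspo1-positive cells. Tcf7l2 held 55.6% to 75.4%, 15.4% to 25.5% and 20.8% to 33% in the same order. The summed FPKM was 3.54 to 5.26 in untreated, 5.47 to 9.35 in Rspo1-negative and 8.6 to 11.3 in Rspo1-positive cells. Thus the family sum was above the untreated range in both Rspo1 groups, while the Tcf7l2 share was lower in both. In such bulk libraries a change in the number of cells that express a gene cannot be told apart from a change in its RNA per cell.

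**Figure D2:**
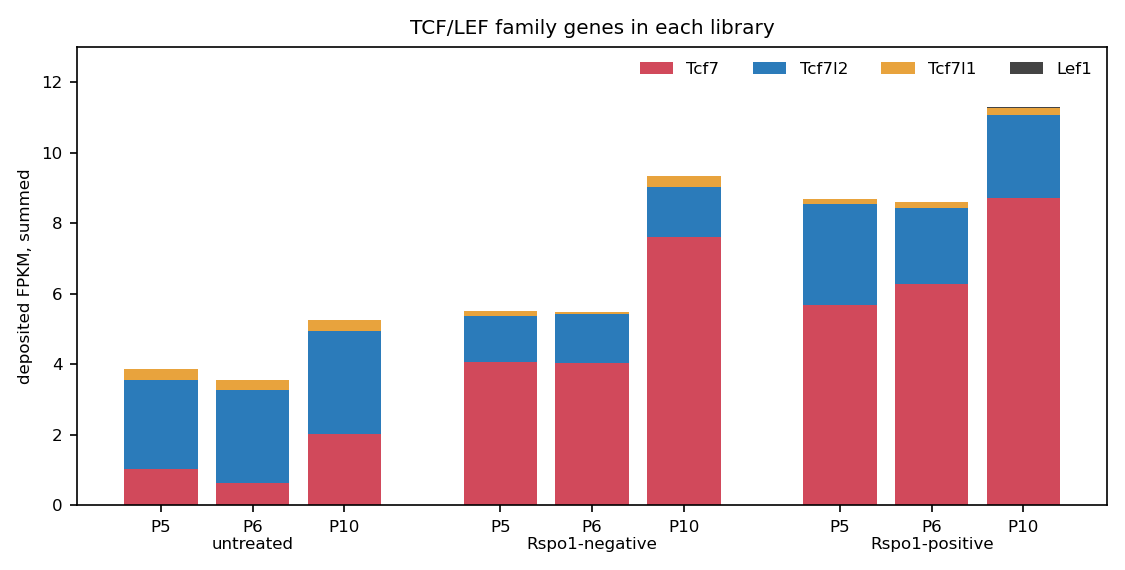
Deposited FPKM of Tcf7, Tcf7l2, Tcf7l1 and Lef1 stacked in each of the 9 libraries, labelled by passage (P5, P6, P10) and group. The Tcf7 segment exceeds the Tcf7l2 segment in all 6 Rspo1 libraries and in none of the 3 untreated libraries, and the summed FPKM reaches 11.3 in the Rspo1-positive library of passage 10.

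Sp5 had the largest rise of the tested members in each Rspo1 group against untreated cells. It read 0.523, 1.10 and 0.691 CPM in untreated cells, from 17, 33 and 24 counts at passages 5, 6 and 10. It read 9.66, 17.8 and 31.2 CPM in Rspo1-negative cells and 10.5, 23.8 and 31.6 CPM in Rspo1-positive cells. The lowest Rspo1 library was several times above the highest untreated library, and in both Rspo1 groups the level followed the passage number. Sp5 rose by 4.83 on the log2 scale in Rspo1-positive cells (SE 0.56, adjusted p = 0.00125) and by 4.66 in Rspo1-negative cells (SE 0.56, adjusted p = 0.00105). Within passages 5, 6 and 10 the Rspo1-positive level was 20, 21.6 and 45.7 times the untreated level. The gates differed by 0.17 (SE 0.45, 95% interval -0.83 to 1.17, adjusted p = 0.818). The promoter window with its 2 TCF/LEF core words belongs to this gene.

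Ascl2 also rose in both Rspo1 groups against untreated cells, from a lower level. It read 0.400, 0.334 and 0.345 CPM in untreated cells at passages 5, 6 and 10, which is 13, 10 and 12 counts. Rspo1-negative cells had 4.82, 5.39 and 5.55 CPM and Rspo1-positive cells 4.88, 3.47 and 4.84 CPM. The untreated values were tight and no library of either Rspo1 group came near them. The log2 fold change was 3.597 (SE 0.27, adjusted p = 0.000302) in Rspo1-positive and 3.85 (SE 0.27, adjusted p = 0.000453) in Rspo1-negative cells. The filter's cutoff of 0.308 CPM, on unscaled library sizes, was reached by 2 of the 3 untreated libraries and by 3 of 3 in each Rspo1 group. Ascl2 thus passed the filter only through the Rspo1 groups, and its calls are read with that limit. Without the filter its log2 fold changes were 3.62 and 3.91. The gates differed by -0.25 (SE 0.22, 95% interval -0.75 to 0.24, adjusted p = 0.44), and this small difference changed sign to 0.18 with the GC and length offset. On the FPKM scale Ascl2 reached 2.16 to 3.01 in Rspo1-positive cells, below the 4.94 to 14.6 of Sp5.

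Myc, a growth factor-responsive activator of ribosome synthesis and metabolism, was the most abundant of the 8 genes in every library, at 36.5 to 93.8 FPKM. It read 90.1, 89.6 and 159.7 CPM in untreated cells, 84.2, 85.4 and 150.9 CPM in Rspo1-negative cells and 127.4, 117.5 and 226 CPM in Rspo1-positive cells at passages 5, 6 and 10. At each passage the Rspo1-positive library was the highest, but the groups overlapped because the passage 10 libraries were high in all of them. Within passages the Rspo1-positive level was 1.41, 1.31 and 1.42 times the untreated level and 1.51, 1.38 and 1.5 times the Rspo1-negative level. Without passage in the model the differences did not pass, with log2 fold changes of 0.47 (SE 0.33, 95% interval -0.25 to 1.19, adjusted p = 0.53) and 0.56 (SE 0.33, 95% interval -0.17 to 1.28, adjusted p = 0.241). Without the Rspo1-positive library of passage 10 they were 0.11 and 0.20. Without the passage 10 library of the group compared with it they were 0.80 and 0.83, and they passed in none of these fits. With passage as a block they passed, at 0.46 (SE 0.11, adjusted p = 0.0146) and 0.55 (SE 0.11, adjusted p = 0.00291).

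The Rspo1-negative level of Myc was 0.934, 0.953 and 0.945 of the untreated level within passages. That difference was -0.08 (SE 0.33, adjusted p = 0.884), and -0.35 (adjusted p = 0.0281) with passage as a block and the GC and length offset together. Cell cycle genes were higher in the Rspo1-positive group as well: of 12 proliferation genes, 11 rose and 0 fell against untreated cells (median log2 fold change 2.8, beside 5.21% of all genes called), and 6 rose and 0 fell against Rspo1-negative cells (median 1.37, beside 24.3% of all genes; 9 rose with the block). In Rspo1-negative against untreated cells 6 of the 12 also rose (median 1.35) and 11 with the block, beside 21.9% and 35.5% of all genes called. The pattern of levels differed within the list. Mki67, a marker of dividing cells, was at 147 to 280 CPM in Rspo1-positive, 13 to 39.8 in Rspo1-negative and 9.79 to 25 in untreated libraries. Mcm5 was at 74.9 to 106, 50.2 to 101 and 9.38 to 22.2 CPM in the same order, so for Mcm5 the gates overlapped. Calls of immediate-early and stress genes, which respond to cell dissociation, depended on the fit. Of 12 such genes, 0 rose and 1 fell by edgeR with group alone in Rspo1-positive against untreated cells (median 0.84), 4 rose and 2 fell by DESeq2, and 7 rose and 2 fell with the block. Between the gates 3 rose (Fosb, Fos and Zfp36), and 5 rose and 1 fell with the block. The shares of all genes called by edgeR were 5.21%, and 13.2% with the block, in Rspo1-positive against untreated cells. Between the gates they were 24.3%, and 38.9% with the block. Fos was at 201 to 582 CPM in Rspo1-positive, 55.5 to 170 in Rspo1-negative and 70 to 183 in untreated libraries. The part of either list in the Myc difference was not tested.

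Cdx2, an intestinal identity factor, was present at a low level in the bile duct organoids and no difference between groups passed the test. It read 2.55, 5.42 and 5.47 CPM in untreated cells, 3.73, 5.35 and 7.41 CPM in Rspo1-negative cells and 4.63, 6.51 and 7.08 CPM in Rspo1-positive cells. The 3 groups overlapped, and passage 5 was the lowest library of each. The log2 fold changes were 0.44 (SE 0.34, 95% interval -0.32 to 1.19, adjusted p = 0.598) in Rspo1-positive and 0.29 (SE 0.34, 95% interval -0.47 to 1.05, adjusted p = 0.589) in Rspo1-negative against untreated cells. The sign of the latter was negative with the GC and length offset, at -0.04. The gates differed by 0.15 (SE 0.34, 95% interval -0.61 to 0.90, adjusted p = 0.786).

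Counted over the 7 genes tested, 3 were higher and 0 lower in Rspo1-positive than in untreated cells. Among the higher genes, Ascl2 passed the filter only through the Rspo1 groups. At the same threshold 5.21% of all tested genes were called, 3.07% as higher, and 13.2% were called with passage as a block, which added Myc. The median log2 fold change was 0.472 over the 7 genes and -0.0107 over all tested genes. In Rspo1-negative against untreated cells 3 genes were higher and 1 lower (median 0.289). There 21.9% of all genes were called with group alone, 35.5% under the block and 8.61% under the offset. Of the calls with group alone, 1361 were higher and 2363 lower (13.9% of all genes), so 1 lower of 7 is near the background. The share of higher genes among these calls was 36.5%, and 49.5% with upper-quartile scaling and 56.2% with the offset. Between the gates only Tcf7l2 was called, as higher in Rspo1-positive cells (median over the 7 genes 0.169), beside 24.3% of all genes (14.6% higher), 38.9% under the block and 8.41% under the offset, so 1 of 7 is not above the background. The share of higher genes among the calls between the gates was 59.8%, and 43.8% with the offset. Groups without overlap were found for 36.3% of all genes between Rspo1-negative and untreated cells and for 45.2% between the gates, where Tcf7l2 was the 1 member whose groups did not overlap. The 3 comparisons share libraries in pairs, so the calls of Tcf7, Sp5 and Ascl2 against the same untreated libraries are not separate evidence. Tcf7, Sp5 and Ascl2 were the members for which both Rspo1 groups lay wholly above the untreated group, as did 4.54% of all tested genes.

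**Figure D3:**
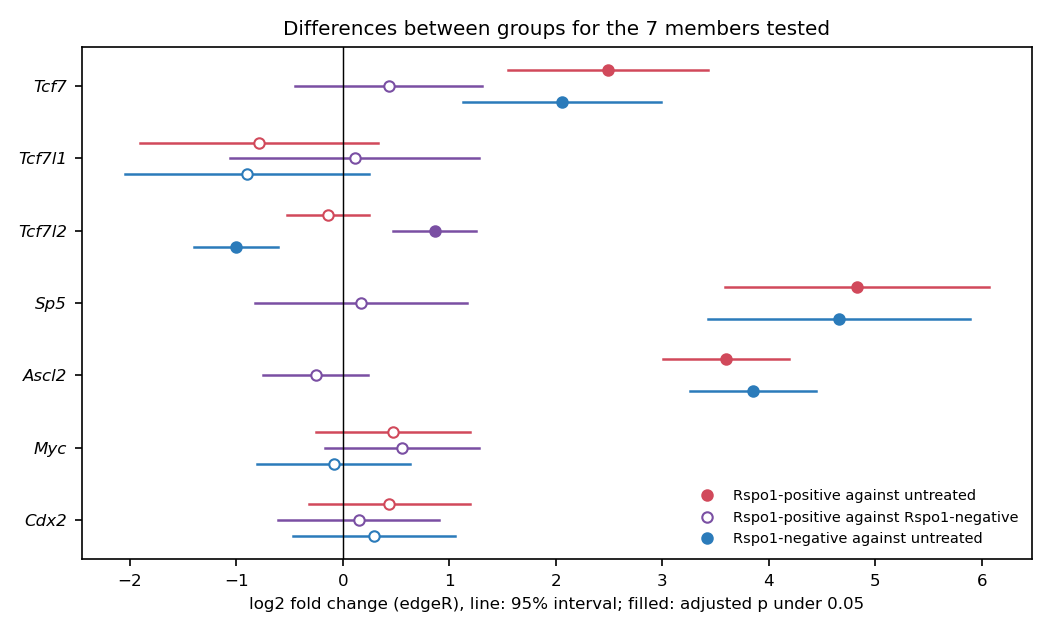
Log2 fold change (horizontal axis, edgeR) with its 95% interval for the 7 tested genes in the 3 comparisons, filled where the adjusted p was under 0.05. Sp5 lies at 4.83 and 4.66 and Ascl2 at 3.597 and 3.85 against untreated cells, while between the gates only Tcf7l2, at 0.86, is filled.

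The nuclear partners of TCF/LEF proteins mostly stayed below the threshold in Rspo1-positive against untreated cells. There 1 of 27 tested genes rose and none fell (median log2 fold change 0.101), beside 5.21% of all genes called. With passage as a block 1 rose and 1 fell, beside 13.2% of all genes. The gene that rose with group alone was Tle1, a Groucho-type co-repressor (log2 fold change 1.03, adjusted p = 0.0381). It had 17.5 to 26 CPM in untreated and 32 to 52 CPM in Rspo1-positive libraries. Tle1 also rose in Rspo1-negative cells by 0.99 (adjusted p = 0.0185). The co-repressors Tle2, Tle3 and Tle4 had values of 0.31, -0.42 and 0.19 in Rspo1-positive against untreated cells, and none passed. Ctnnb1, which encodes beta-catenin itself, was at -0.26 (adjusted p = 0.525). In Rspo1-negative against untreated cells 3 of the 27 partners rose and 9 fell (median -0.265), beside 21.9% of all genes called (13.9% as lower). Among the falls were the acetyltransferases Ep300 (-1.22, adjusted p = 0.00385) and Crebbp (-1.01, adjusted p = 0.0132). Once GC and length entered as an offset, 1 rose (Tle1) and 3 fell, beside 8.61% of all genes, and the median was -0.0704. Ep300 and Crebbp were among the falls in both fits, and the co-repressor Ctbp2 was called only with the offset. Against Rspo1-negative cells 7 partners rose and 1 fell in Rspo1-positive cells beside 24.3% of all genes, and 4 rose and 0 fell with the offset beside 8.41% of all genes. With the block 11 rose and 1 fell, beside 38.9% of all genes.

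In Rspo1-positive against untreated cells, where 5.21% of all genes were called, a list of other Wnt targets was counted. Of its 14 tested genes 5 rose and none fell (median 0.786). They were Axin2, the stem cell receptor Lgr5 (4.82, adjusted p = 0.00991), the duct and progenitor factor Sox9 (1.31, adjusted p = 0.0412), and the receptor-removing ligases Rnf43 (0.78, adjusted p = 0.032) and Znrf3 (0.86, adjusted p = 0.0337). Lgr5 stood at 0.0669 to 0.369 CPM in untreated and 1.62 to 10.4 CPM in Rspo1-positive libraries. With 2 to 12 counts in untreated libraries it passed the filter through the Rspo1 groups, so its call is given no weight. In Rspo1-negative cells 4 of the 14 rose and 1, Prox1, fell (median 0.524), beside 21.9% of all genes called. With the offset 4 rose and 0 fell there, beside 8.61%. With passage as a block 7 rose in each Rspo1 group, beside 13.2% of all genes in Rspo1-positive and 35.5% in Rspo1-negative cells. Other targets did not pass: Ccnd1, which encodes cyclin D1, was at 0.20 (adjusted p = 0.784) and Ephb3 at -0.28 (adjusted p = 0.382) in Rspo1-positive against untreated cells. Mycn, a relative of Myc, was at 0.83 (adjusted p = 0.0782), and passed with the block (adjusted p = 0.00461).

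The other Sp genes had no called rise like that of Sp5. Of 5 tested, none rose and none fell in Rspo1-positive against untreated cells by edgeR (median -0.108) or by DESeq2. By either, 0 had an unadjusted p under 0.05. In Rspo1-negative cells 3 fell, Sp1 (-0.69), Sp3 (-1.36) and Sp4 (-1.31), beside 21.9% of all genes called (13.9% as lower). With the GC and length offset only Sp3 remained called (adjusted p = 0.0142), beside 8.61% of all genes. Sp3 read 44.7 to 53 CPM in untreated and 13.7 to 21.3 CPM in Rspo1-negative libraries.

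Of all tested genes, 5.21% were called in Rspo1-positive and 21.9% in Rspo1-negative against untreated cells. Of 9 stem cell genes linked to Ascl2 in the intestine, 4 rose and none fell in each of these comparisons (medians 0.776 and 0.989). They were Axin2, Lgr5, Rnf43 and Cdca7, a cell cycle gene that rose by 1.94 (adjusted p = 0.00117) in Rspo1-positive and 1.56 (adjusted p = 0.00152) in Rspo1-negative cells. The first 3 stand on the list of Wnt targets as well. Lgr5 passed the filter through the Rspo1 groups, so its call is given no weight here either. Olfm4 and Smoc2, secreted stem cell markers, were at 0.44 (adjusted p = 0.791) and 0.56 (adjusted p = 0.708) in Rspo1-positive cells. No gene of the list was called between the gates by edgeR with group alone or by DESeq2, and 0 had an unadjusted p under 0.05 by either. With passage as a block and the offset together, Cdca7 was called there (adjusted p = 0.0395).

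Of 12 listed genes linked to Cdx2 in the intestine, 6 passed the filter, as did 17011 of all 32137 genes. Vil1 was among them, at 315 to 374 CPM in untreated libraries. It had 326 to 353 CPM in Rspo1-negative and 288 to 335 CPM in Rspo1-positive libraries. In Rspo1-positive against untreated cells 2 of these 6 fell, beside 5.21% of all genes called. The falls were Cdh17, an intestinal cadherin, by 0.99 on the log2 scale (adjusted p = 0.0106), and Krt20, a keratin of mature surface cells, by 1.85 (adjusted p = 0.00452). Krt20 stood at 276 to 500 CPM in untreated, 98 to 145 CPM in Rspo1-negative and 69.9 to 136 CPM in Rspo1-positive libraries. Cdx1, the intestinal relative of Cdx2, had at most 3 counts in any library, and the enterocyte enzyme Sis had 0 counts in all 9. With passage as a block 3 fell, Fabp2 joining Cdh17 and Krt20, and 1, Lct, was called higher, beside 13.2% of all genes. Fabp2, with 21 to 29 counts in untreated and 6 to 12 in Rspo1-positive libraries, passed the filter through the untreated group. Lct, with 1 to 3 and 9 to 18 counts in the same order, passed it through the Rspo1 groups. Neither call is given weight. In Rspo1-negative cells Cdh17 and Krt20 fell as well, beside 21.9% of all genes called. Lct was called higher there by edgeR, and DESeq2 gave it no adjusted p, but with 1 to 3 counts in untreated and 3 to 21 in Rspo1-negative libraries it passed the filter through the Rspo1 groups, and its call is given no weight. With the offset only Krt20 was called there, beside 8.61% of all genes.

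The Myc network comprised partners and antagonists that share its DNA site. Of 12 tested, only Mxd1, an antagonist, was called in Rspo1-positive against untreated cells, at -0.87 (adjusted p = 0.0446). With passage as a block 3 rose (Mycl, Mycn and Mlxipl) and 1 fell, beside 13.2% of all genes called. Mga, a repressor of Myc sites, was at -1.57 (adjusted p = 0.00217) in Rspo1-negative against untreated cells and was no longer called once GC and length were an offset (adjusted p = 0.0612). Of 18 Myc-responsive genes of ribosome synthesis and metabolism, 1 rose and none fell in Rspo1-positive against untreated cells, beside 5.21% of all genes called. The gene that rose was Srm, which makes spermidine (0.64, adjusted p = 0.0212), and the list median was 0.378. With the block 7 rose and none fell, beside 13.2% of all genes. Between the gates 6 rose and 1 fell, beside 24.3% of all genes called. Nucleolar Ncl was at 1.23 (adjusted p = 0.00683) and Nop58 at 1.17 (adjusted p = 0.00237). With the offset 2 rose, beside 8.41% of all genes.

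**Figure D4:**
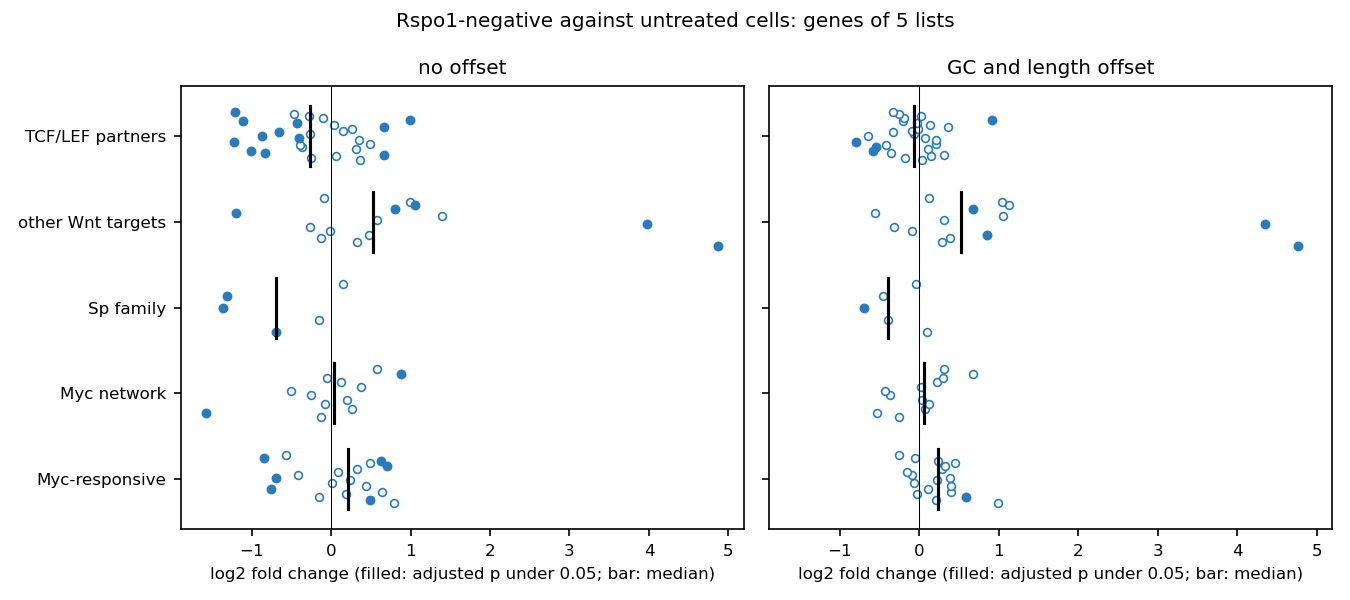
Change on the log2 scale from untreated to Rspo1-negative cells for the tested genes of 5 lists (1 point per gene, filled where the adjusted p was under 0.05, bar at the list's median), in the fit with no offset and in that with one for GC and length. The median of the TCF/LEF partners moves from -0.265 to -0.0704 with the offset, while Axin2 and Lgr5 stay the 2 rightmost points of the other Wnt targets.

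Passage was the second axis along which these genes varied. In a fit of group and passage, 4 of the 7 tested genes were higher at passage 10 than at passage 5 and 0 lower, beside 9.07% of all genes called (4.57% higher). The 3 libraries of a passage, from different groups, served as its replicates. The SE and p-values therefore do not measure the spread between separate cultures of the same passage. Sp5 rose by 1.45 (SE 0.23, adjusted p = 0.00403), Cdx2 by 0.89 (SE 0.19, adjusted p = 0.0168), Tcf7 by 0.88 (SE 0.20, adjusted p = 0.0235) and Myc by 0.83 (SE 0.11, adjusted p = 0.00142), all on the log2 scale. All 4 were higher at passage 10 than at passage 5 in each of the 3 groups. For Sp5 the untreated libraries changed least, from 0.523 to 0.691 CPM, while both Rspo1 groups went from about 10 to above 31 CPM. Whether the passage difference depends on Rspo1 was not tested. When the Rspo1-negative or the Rspo1-positive group was left out, only Myc remained called. The differences then were 1.24 and 1.29 for Sp5, 0.81 and 1.04 for Cdx2 and 0.81 and 0.99 for Tcf7.

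Ascl2 (0.04, adjusted p = 0.928) and Tcf7l2 (0.04, adjusted p = 0.909) had values near 0 between passages 10 and 5, and Tcf7l1 was at 0.61 (SE 0.43, adjusted p = 0.383). Between passages 6 and 5 only Sp5 was called, at 1.07 (SE 0.23, adjusted p = 0.0378), beside 2.49% of all genes (1.16% higher). That call was lost when either Rspo1 group was left out, with values of 1.197 and 0.99. Cdx2 was at 0.69 (adjusted p = 0.0879). Stress and immediate-early genes also differed by passage, since of 12 dissociation response genes 7 fell at passage 10 and 6 fell at passage 6 against passage 5, and none rose. Of 12 proliferation genes 2 rose at passage 10 and 7 at passage 6, and none fell. Beside these lists 9.07% of all genes were called at passage 10 and 2.49% at passage 6. Of the 4 hepatocyte markers tested, 3 fell at passage 10 (median -1.34), the apolipoprotein genes Apob and Apoa1 and the carrier gene Ttr, while Alb was at 0.52 (adjusted p = 0.188). Apob and Apoa1 were near the floor, with 1 to 42 and 7 to 51 counts per library. Their part in the passage differences of the 8 genes was not tested. Of the Myc-responsive list 5 of 18 fell and none rose at passage 10, beside 9.07% of all genes called. A link of these genes to the level of Myc was not tested. Passage has 1 culture of each group, so passage and culture batch cannot be told apart.

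**Figure D5:**
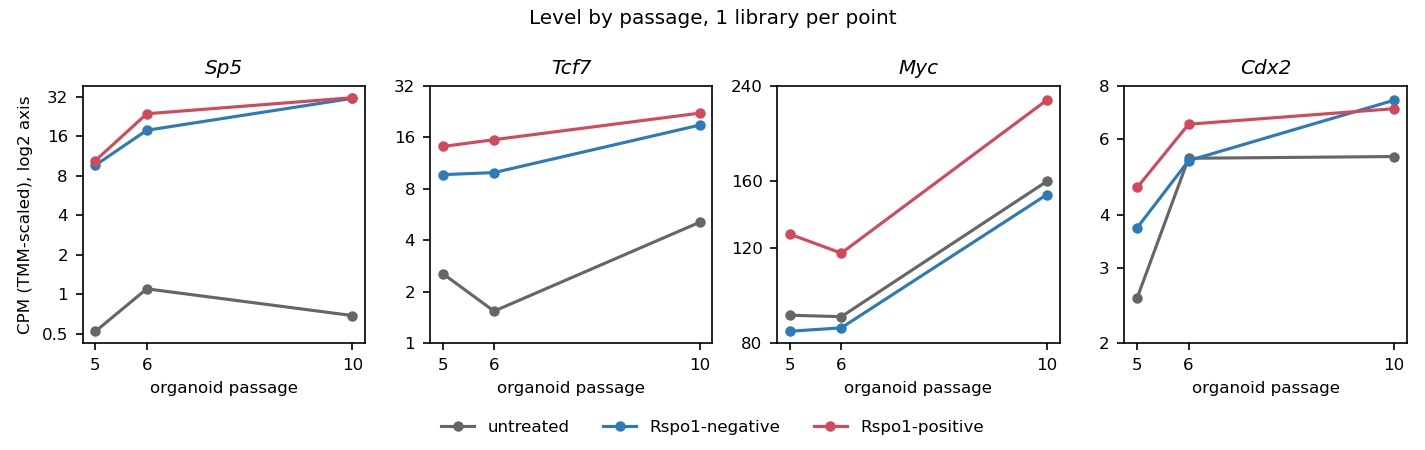
Level of Sp5, Tcf7, Myc and Cdx2 in CPM (log2 vertical axis) against organoid passage, 1 line per group and 1 library per point. Sp5 separates the Rspo1 groups from the untreated group at every passage, whereas the Myc lines of the untreated and Rspo1-negative groups run close together and the passage 10 points are the highest.

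The cells carried duct markers in all libraries, with 8 of 8 detected and a summed level of 6880 to 8680 CPM in untreated, 6960 to 9080 in Rspo1-negative and 5910 to 6070 in Rspo1-positive libraries. The 8 hepatocyte markers summed to 164 to 545 CPM over the 9 libraries, of which Ttr made up 149 to 534 CPM. Cps1 and Cyp3a11 had at most 3 counts in any library. Of 10 leukocyte markers 6 were in the files, with a sum of 37.6 to 56.5 CPM, of which Csf1r made up 37.2 to 56.1 CPM. The 6 mesenchymal markers found summed to under 1 CPM and so did the 5 endothelial markers. Enterocyte and goblet markers summed to 412 to 458 CPM in untreated, 176 to 278 in Rspo1-negative and 184 to 238 in Rspo1-positive libraries, nearly all of it Cdh17. Their part in the values of Cdx2 was not tested.

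The genes with the most similar pattern over the 9 libraries are given as a description, by Pearson correlation of log2 CPM among 11661 genes. For Tcf7 they were Mir8094 (0.981), Plekhs1 (0.974) and Prickle1 (0.973), and for Sp5 Iqck (0.98), Gpx2 (0.979) and C1qtnf1 (0.977). Ascl2 was closest to Hunk (0.986), Xrcc6 (0.978) and Mras (0.975). Tcf7l2 was closest to Syt14 (0.993), Apbb2 (0.99) and Ranbp9 (0.989), Myc to Mettl25 (0.954), Slc1a2 (0.946) and Dcun1d4 (0.943), and Cdx2 to Oxa1l and Nfyc (0.949 each) and Mybpc2 (0.947). Tcf7l1 had the weakest matches, Tcf24 (0.916), Mtmr10 (0.899) and Ube2d2a (0.897). All these points share libraries, group differences and the GC trend.

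In the authors' deposited table of DESeq2 results, which lists 15807 genes, 6 of the 8 genes had a row, and Tcf7l1 and Lef1 had none. In the authors' deposited table Sp5 stood at 4.78, Ascl2 at 3.61 and Tcf7 at 2.62 in Rspo1-positive against untreated cells. There Myc had a log2 fold change of 0.47 with an adjusted p of 0.00273 in the authors' deposited table, and 0.53 with 4.59e-05 against Rspo1-negative cells. For Tcf7 between the gates the authors' deposited table gave 0.45 with an adjusted p of 0.0236. Cdx2 was not below 0.05 in any of the 3 comparisons of the authors' deposited table.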

How the data were processed

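RNA was sequenced from 9 libraries (single-end 75 bp, 100 ng RNA, per the labels' protocols). Reads were trimmed with Trimmomatic 0.35, checked with FastQC 0.11.2, aligned with STAR 2.5.1b to GRCm38 and counted with featureCounts, per the submitters' processing notes, which name no strand setting. The deposited files hold raw counts and FPKM per gene, per the file headers. The deposited FPKM scaling followed a median-of-ratios size factor, not the total count. The column names of replicate 3 carry the number 4, and replicate 3 was matched by its file. The authors also deposited DESeq2 tables with log2 fold changes, p-values and adjusted p-values, per the file headers. Those tables also hold a mean signal per gene and a test score, per the file headers, which were not used.

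Counts were tested with edgeR 4.0.16 in R 4.3.3 (quasi-likelihood F-test, all 9 libraries, group as factor, TMM). Genes were filtered by filterByExpr (minimum count 10, total 15), which kept 17011, and p-values were Benjamini-Hochberg adjusted over these at 0.05. Passages were compared in a fit of group and passage. The SE is the log2 fold change divided by the square root of F. Depth was 23423979 to 37351448 counts per library, so a count of 3 is 0.08 to 0.13 CPM. Intervals from the fit cover the spread between libraries. Same-passage libraries deviated together (correlation 0.123 to 0.573 in 9 of 9 pairs, against -0.476 to 0.0826 in 18 pairs of different passages), so passage pairs the libraries, and a blocked value is given where it changes a member's call or moves a list count named in the text by over 1.5 times. The GC and length offset was a smooth term per library (mgcv 1.9.3, GENCODE M21 transcripts). Alternatives were other scalings, DESeq2 1.42.0, no filter, that offset, the block, 6 libraries and leaving out each library. The fit was tested on simulated data that held no passage effect, so that test does not cover the pairing of libraries by passage.

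The 8 genes, the lists, markers and motifs were chosen with earlier results of these data known. The text names all 8, Axin2, list genes and the 3 genes most like each member (mean log2 CPM above 2). Promoters are RefSeq GRCm38.p6. Figures were drawn with Python 3.11.15.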

Additional observations from a re-analysis of the deposited data

How the results depend on the processing

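All Rspo1 calls of Tcf7, Sp5 and Ascl2 against untreated cells, and both calls of Tcf7l2, held in all 14 alternatives (other scalings, DESeq2, no filter, offset, block, block with offset, 6 libraries, 6 left-out libraries). The Ascl2 calls keep their limit here, since Ascl2 passed the filter only through the Rspo1 groups. Tcf7 ranged from 2.17 to 3.07, Sp5 from 4.47 to 5.17 and Ascl2 from 3.52 to 3.74 in Rspo1-positive against untreated cells. Over 406 values of single genes, 370 kept direction and side of the threshold. The cause was not tested for any value below.

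Myc depended on the block: it passed only with passage in the fit, at 0.46 and 0.55, and in Rspo1-negative against untreated cells, at -0.35, only with block and offset together. The replicate block alone changed no other member's call. Genes called in Rspo1-positive against untreated cells numbered 886, and 1506 with DESeq2, 1446 without the filter, 2247 with the block, 2744 with block and offset, and 390 to 899 when a library was left out. Between the gates they numbered 4141, and 1430 with the offset, 6624 with the block and 2061 to 4068 when a library was left out. Members called there went from 1 to 2 with the block and 3 with block and offset, where 4081 genes (24.0%) were called. For Rspo1-negative against untreated cells the numbers were 3724, and 1465 with the offset, 6039 with the block, 2299 with only the 6 libraries compared and 1800 to 3772 when a library was left out.

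For passage 10 against passage 5 the count was 1543, and 2784 without the filter and 318 to 1169 when a group was left out, with 1 to 4 members called. For passage 6 against passage 5 it was 423, and 851 with DESeq2, 1193 without the filter and 110 to 452 when a group was left out. Members called there were 2 without the filter, Cdx2 joining Sp5, and 0 to 1 when a group was left out.

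Signs reversed for uncalled differences. With the GC and length offset, Ascl2 between the gates was at 0.18 (0.17 with the block), Cdx2 in Rspo1-negative against untreated cells at -0.038 (-0.0069 with the block) and Ascl2 at passage 10 against 5 at -0.041. When a library was left out, the gate difference ranged from -0.074 to 0.37 for Cdx2, -0.29 to 0.84 for Tcf7l1, -0.19 to 0.63 for Sp5 and -0.11 to 0.53 for Axin2, and Myc in Rspo1-negative against untreated cells from -0.37 to 0.25. When a group was left out, passage 10 against 5 ranged from -0.059 to 0.21 for Tcf7l2 and -0.094 to 0.094 for Ascl2. Passage 6 against 5 then ranged from -0.28 to 0.092 for Tcf7, -0.41 to 0.030 for Ascl2, -0.058 to 0.0084 for Myc and -0.17 to 0.11 for Tcf7l2. Depth limits Lef1 and Tcf7l1.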
